A study of Mus musculus with 9 samples.

Results

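A set of 8 genes of mast cells and basophils was followed in mouse G1E cells that had received human GATA1: Cpa3, Hdc, Mcpt2, Ms4a2, Il1rl1, Tec, Lcp2 and Rab44. They were found by symbol in a table of 27999 rows, where each had 1 row, and all 8 were among the 9978 mouse genes that passed the filter on low counts. The genes had been picked with earlier results of the same comparisons in view, and were chosen by their counts and fold changes between the 3 groups. Their levels and fold changes are therefore given as a description, not as a test.

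RNA was sequenced from 3 groups of G1E cells, an erythroid progenitor line of mouse origin without functional Gata1, so every group shared that loss. Cells grew in IMDM with fetal calf serum, murine stem cell factor and erythropoietin, and were spin-infected with virus from 293T cells. The virus carried a human GATA1 mutant (3 libraries), human wildtype GATA1 (3 libraries) or the empty HMD vector (3 libraries). Which mutation was used, when cells were lysed and whether infected cells were selected is not given in the sources used here. Library totals lay between 11364358 and 17289307 counts, and a floor of 3 counts, the limit that a count of 0 allows, stood at 0.174 to 0.264 CPM (counts scaled by library size). Human GATA1 gave 653, 706 and 598 CPM in mutant libraries and 816, 715 and 921 CPM in wildtype libraries, against 0, 2 and 0 counts in empty vector libraries. Mutant replicates 1 and 2 were closer to each other than any other pair of one group, with a chi-square per gene of 2.21 against 14.7 to 54.7, but still differed by more than the value of 1 that sampling noise gives.

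Mast cells and basophils store proteases, proteoglycans and histamine in granules and release them when antigen crosslinks IgE on the high-affinity IgE receptor. The receptor passes its signal through Src, Syk and Tec family kinases to adaptors such as LAT and SLP-76, then to phospholipase C and calcium. In blood progenitors GATA2 is known to favour the mast cell and basophil programme. GATA1 is needed for red cells, for eosinophils and for the later steps of mast cell formation.

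The promoters are shown because GATA factors bind DNA through short GATA motifs. RefSeq promoter windows on GRCm38.p6 were at hand for 6 of the 8 genes, 7 windows in all, since Il1rl1 has 2 start sites. Each run below covers the 250 bases before a gene start, 5′ to 3′ on the strand of the gene. Capitals mark the motif AGATAA, the motif AGATAG, the motif TGATAA or the motif TGATAG on either strand, so that AGATAA on the other strand reads TTATCT. No match overlapped another. The windows of Hdc and of the inner Il1rl1 start were searched too but are not printed.
Cpa3 (chr3:20242182-20242431, minus strand): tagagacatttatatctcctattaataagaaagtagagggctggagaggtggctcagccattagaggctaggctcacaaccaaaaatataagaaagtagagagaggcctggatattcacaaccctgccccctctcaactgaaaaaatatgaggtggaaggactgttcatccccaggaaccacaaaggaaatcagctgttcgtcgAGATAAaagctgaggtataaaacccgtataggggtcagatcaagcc
Ms4a2 (chr19:11623720-11623969, minus strand): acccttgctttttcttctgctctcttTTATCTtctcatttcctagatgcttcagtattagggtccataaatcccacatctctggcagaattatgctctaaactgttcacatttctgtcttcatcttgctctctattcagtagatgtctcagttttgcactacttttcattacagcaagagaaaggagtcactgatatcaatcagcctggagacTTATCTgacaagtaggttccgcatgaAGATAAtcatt
Il1rl1 (chr1:40429320-40429569, plus strand): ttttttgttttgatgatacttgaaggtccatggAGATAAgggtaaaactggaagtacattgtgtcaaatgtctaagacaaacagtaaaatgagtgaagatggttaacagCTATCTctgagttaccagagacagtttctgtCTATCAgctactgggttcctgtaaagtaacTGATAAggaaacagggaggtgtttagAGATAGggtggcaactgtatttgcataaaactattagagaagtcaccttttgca
Lcp2 (chr11:34046678-34046927, plus strand): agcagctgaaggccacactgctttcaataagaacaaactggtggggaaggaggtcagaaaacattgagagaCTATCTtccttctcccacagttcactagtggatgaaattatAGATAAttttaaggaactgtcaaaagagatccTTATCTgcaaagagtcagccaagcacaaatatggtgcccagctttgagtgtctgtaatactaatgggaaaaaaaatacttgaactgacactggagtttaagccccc
Tec (chr5:72868449-72868698, minus strand): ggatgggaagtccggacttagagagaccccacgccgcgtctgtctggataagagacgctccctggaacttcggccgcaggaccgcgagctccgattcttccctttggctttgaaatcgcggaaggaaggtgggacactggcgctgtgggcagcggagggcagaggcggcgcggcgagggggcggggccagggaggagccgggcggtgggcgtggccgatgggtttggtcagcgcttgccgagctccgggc

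The upstream Il1rl1 window held 5 such matches, and the window of its inner start held 1. Lcp2 and Ms4a2 held 3 each, Cpa3 held 1 at 46 bases before the start, Hdc held 1 and Tec held 0. Over 32851 mouse windows of this length, 26.5% held at least 1 match, 1.35% at least 3 and 0.0426% at least 5. A match describes letters in the window and shows no binding, and a window with none says only that these letters are not in it.

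Most of the 8 genes were lower with wildtype GATA1 than with the empty vector, 1 was far higher, and the mutant split them. Of the 8 genes, 6 were called lower and 1, Mcpt2, was called higher with the wildtype against the empty vector, while Hdc was not called; a call is an adjusted p under 0.05 in the edgeR quasi-likelihood test over all genes. Over all 9978 tested genes, 11.9% were called lower and 11.4% higher. With the mutant against the empty vector, Cpa3, Tec and Ms4a2 were called lower and 0 genes were called higher, where the background was 0.0601% lower and 0.21% higher. There, 4 of the 8 reached an unadjusted p under 0.05, as did 1284 of all 9978 tested genes, and DESeq2 called 4 lower and 0 higher. With the mutant against the wildtype, Cpa3, Il1rl1, Rab44, Tec and Lcp2 were called higher and Mcpt2 lower, beside 13.2% called higher and 12.7% lower over all genes. Since these contrasts were known when the genes were chosen, nothing is read from the counts. The libraries of the 2 groups did not overlap for 7, 4 and 7 of the 8 genes in these comparisons, in the order given, and for 32.6%, 15% and 44.2% of all tested genes. The median log2 fold changes of the 8 genes were -2.27 (wildtype against empty vector), -0.36 (mutant against empty vector) and 1.22 (mutant against wildtype), and the medians of all tested genes in the same order were -0.04, -0.00052 and -0.01. The comparisons share libraries and are not independent of each other. In bulk RNA, fewer cells of a type and less RNA per cell cannot be told apart.

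**Figure D1:**
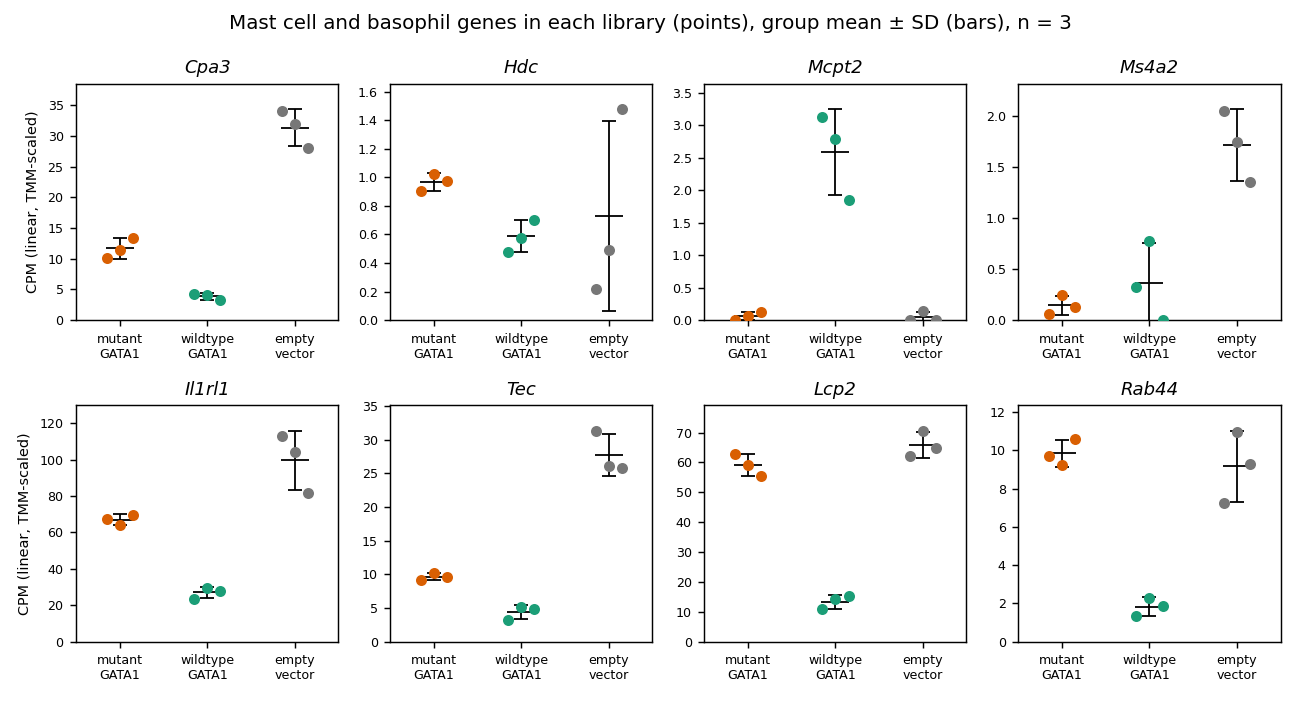
CPM (TMM-scaled, linear axes) of the 8 genes in each library, with bars for the group mean ± SD of 3 libraries. Cpa3, Il1rl1, Tec, Lcp2 and Rab44 were lowest in the wildtype libraries, and Mcpt2 was above 1 CPM in the wildtype libraries and at or below 0.14 CPM in the others.

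Among the genes of granule contents, Cpa3 took a different level in each of the 3 groups. Cpa3 encodes carboxypeptidase A3, an exopeptidase stored in mast cell granules (chr3:20215620-20242181, minus strand, GRCm38). Its levels were 10.2, 11.4 and 13.4 CPM in mutant libraries and 4.32, 4.04 and 3.25 CPM with the wildtype, against 34.0, 32.0 and 28.1 CPM with the empty vector. No library of one group overlapped another group, with the mutant between the other groups. The log2 fold change was -3.01 ± 0.18 (SE) with the wildtype and -1.43 ± 0.16 with the mutant against the empty vector, so Cpa3 was 8.08-fold and 2.69-fold lower. Between mutant and wildtype it was 1.59 ± 0.18. The Cpa3 calls stood in every alternative run, in all 3 comparisons.

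Mcpt2 ran opposite to Cpa3 with the wildtype. It encodes mast cell protease 2, a chymase-type serine protease of mucosal mast cells (chr14:56042041-56044642, plus strand). It had 0, 1 and 2 counts with the mutant and 39, 29 and 21 counts with the wildtype, against 0, 2 and 0 counts with the empty vector. In CPM the wildtype libraries stood at 3.12, 2.79 and 1.84, above all 6 others, and the mutant and empty vector libraries were at or below the floor of 3 counts. The CPM ratio of wildtype to empty vector was 56.5, with a 95% counting interval of 15.2 to 473. The ratio of wildtype to mutant was 43.0, with an interval of 14.2 to 213. These intervals rest on counts pooled over the 3 libraries of a group. Like the floors, they reflect counting error alone and leave out the spread among libraries. Reads were also not tied to single molecules. The edgeR intervals of the log2 fold change were 4.10 to 7.03 for wildtype against empty vector and -6.58 to -3.87 for mutant against wildtype. Mcpt2 shares no run of 50 bases with a transcript of another gene. No fold is given for the mutant against the empty vector, with 3 and 2 counts in all.

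Hdc, histidine decarboxylase, which makes histamine from histidine (chr2:126593667-126619299, minus strand), was near the limit of detection. It had 16, 17 and 15 counts with the mutant and 6, 6 and 8 counts with the wildtype, against 3, 7 and 23 counts with the empty vector. The 3 empty vector libraries ranged from 0.220 to 1.48 CPM and spanned both other groups, which themselves did not overlap: 0.904 to 1.02 CPM in mutant libraries and 0.480 to 0.703 CPM with the wildtype. The 95% intervals of the log2 fold changes included 0 in each comparison, at -1.60 to 0.89 for wildtype against empty vector, -0.71 to 1.43 for mutant against empty vector and -0.46 to 1.90 for mutant against wildtype. A difference in Hdc was not detectable at this depth and with this spread among the empty vector libraries. Its wildtype log2 fold change was 0.70 without empty vector replicate 3, the library with 23 counts, and -0.76 without empty vector replicate 1.

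Of the 2 receptor genes, Ms4a2 was scarce and low with both forms of GATA1, and Il1rl1 was abundant and low mainly with the wildtype. Ms4a2 encodes the beta chain of the high-affinity IgE receptor, which amplifies its signal (chr19:11615523-11623719, minus strand). It had 1, 4 and 2 counts with the mutant and 4, 8 and 0 counts with the wildtype, against 28, 25 and 21 counts with the empty vector. In CPM the empty vector libraries ranged from 1.35 to 2.05, above all 6 libraries with GATA1, and the mutant and wildtype libraries overlapped. The log2 fold changes against the empty vector were -2.25 ± 0.59 with the wildtype and -3.52 ± 0.64 with the mutant, and the difference of mutant and wildtype was -1.27 ± 0.87, with an interval of -3.16 to 0.63. The Ms4a2 call with the wildtype was lost without wildtype replicate 1, the library with 4 counts. The call with the mutant held in 7 of 15 alternatives. It was lost without any 1 of the mutant libraries, wildtype replicate 1 or empty vector replicate 1 or 2, with a replicate block, and with mutant replicates 1 and 2 summed.

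Il1rl1 encodes ST2, the receptor chain for the alarmin interleukin-33 on mast cells and basophils (chr1:40429570-40465415, plus strand). It stood at 67.6, 63.9 and 69.6 CPM in mutant libraries and at 23.6, 29.7 and 28.0 CPM with the wildtype, against 113, 104 and 81.4 CPM with the empty vector. The 3 groups did not overlap, and the empty vector libraries were the most spread. The log2 fold change was -1.88 ± 0.15 with the wildtype, a 3.67-fold lower level, and 1.31 ± 0.15 for mutant against wildtype. For mutant against empty vector it was -0.57 ± 0.14, with an interval of -0.87 to -0.27 and no call after adjustment. It was called lower there without empty vector replicate 3, the lowest of its group, and with DESeq2 or no filter on low counts.

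The IgE receptor subunits could not be followed beyond Ms4a2. Fcer1a, the chain that binds IgE, had 1 count in the 9 libraries, in empty vector replicate 2. Fcer1g, the shared gamma chain, had 5, 4 and 6 counts with the mutant and 0, 2 and 0 counts with the wildtype, against 4, 2 and 1 counts with the empty vector. Genes that most cells use can also be listed near 0 in this table, as Cd63 was with 0 or 1 count in each library and Gyg with 0 in all, so a 0 here is given only as listed.

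**Figure D2:**
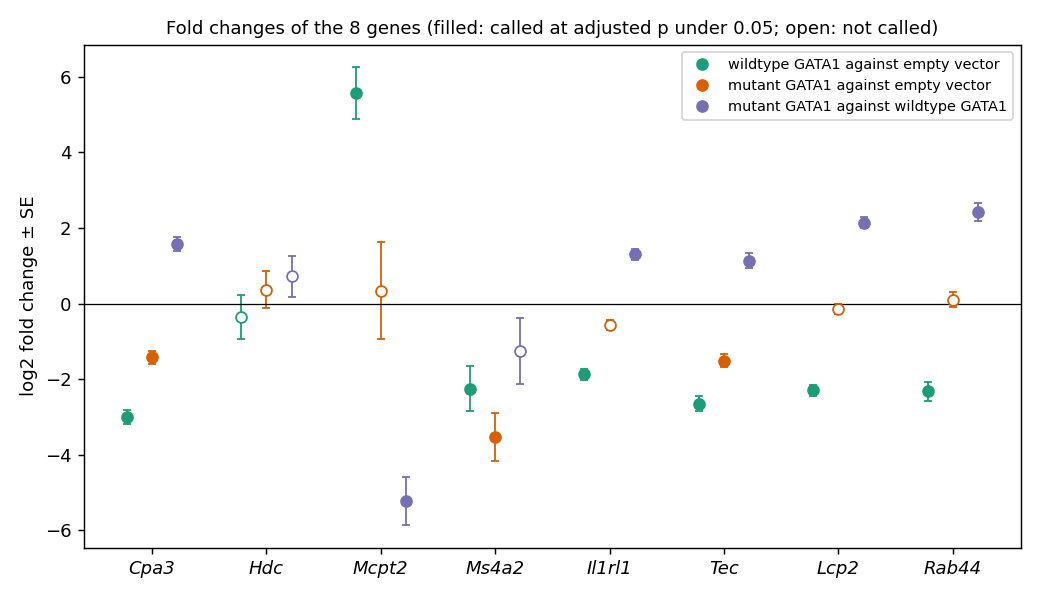
Log2 fold changes of the 8 genes with their SE in the 3 comparisons, filled where called and open where not. The empty vector comparisons of Rab44 and Lcp2 lie below -2 for the wildtype and within 0.2 of 0 for the mutant, whereas Cpa3, Tec and Ms4a2 lie below -1 for both.

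The signalling genes Tec and Lcp2 were both called lower with the wildtype, and Tec alone of them was called with the mutant. Tec encodes the founding kinase of the TEC family, which acts below the IgE receptor and Kit (chr5:72755716-72868483, minus strand). It was read at 9.21, 10.2 and 9.55 CPM in mutant libraries and at 3.28, 5.20 and 4.83 CPM with the wildtype, against 31.3, 26.1 and 25.7 CPM with the empty vector. As for Cpa3, the groups did not overlap and the mutant lay between the others. The log2 fold changes against the empty vector were -2.65 ± 0.19 with the wildtype and -1.52 ± 0.17 with the mutant, and mutant against wildtype was 1.13 ± 0.19. These calls stood in every alternative.

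Lcp2 encodes SLP-76, the adaptor that links LAT to phospholipase C gamma and Vav below the IgE receptor (chr11:34046920-34092295, plus strand). Its levels were 62.8, 59.2 and 55.5 CPM in mutant libraries and 10.8, 14.3 and 15.2 CPM with the wildtype, against 62.0, 70.6 and 65.0 CPM with the empty vector. The mutant and empty vector libraries overlapped, and the wildtype libraries lay far below both. The log2 fold change was -2.29 ± 0.15 with the wildtype, 4.90-fold lower, and 2.14 ± 0.15 for mutant against wildtype. For the mutant against the empty vector it was -0.15 ± 0.14 with an interval of -0.45 to 0.14. Lcp2 shares 282 exon bases, 6.32% of its total, with 4930469K13Rik on the other strand, and the libraries keep no strand.

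Rab44, like Lcp2, was called lower with the wildtype and not called with the mutant. It encodes a large Rab GTPase known in mice for a part in mast cell degranulation (chr17:29114145-29148980, plus strand). It stood at 9.72, 9.22 and 10.6 CPM in mutant libraries and at 1.36, 2.31 and 1.84 CPM with the wildtype, against 7.26, 11 and 9.27 CPM with the empty vector. The mutant libraries lay within the range of the empty vector libraries, and the wildtype libraries lay below both. The log2 fold change was -2.33 ± 0.24 with the wildtype, 5.02-fold lower, and 2.43 ± 0.24 for mutant against wildtype. Against the empty vector the mutant gave 0.10 ± 0.20, with an interval of -0.33 to 0.53.

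Per length of exon the 8 genes kept different ranks in the 3 groups. The scale is CPM per kilobase of exon, as mean ± SD of 3 libraries. With the mutant, Lcp2 came first at 13.3 ± 0.821, then Il1rl1 at 9.72 ± 0.416, Cpa3 at 7.69 ± 1.09, Tec at 2.58 ± 0.141 and Rab44 at 1.94 ± 0.136. With the wildtype, Il1rl1 stood at 3.93 ± 0.454, Lcp2 at 3.02 ± 0.523, Cpa3 at 2.55 ± 0.366, Mcpt2 at 2.44 ± 0.625 and Tec at 1.19 ± 0.272. With the empty vector, Cpa3 came first at 20.7 ± 2.0, then Lcp2 at 14.8 ± 0.982, Il1rl1 at 14.4 ± 2.37, Tec at 7.41 ± 0.83 and Rab44 at 1.81 ± 0.367. Mcpt2, last or next to last in the other groups, was thus level with Cpa3 in the wildtype libraries. Neighbours in these orders whose libraries overlapped were Lcp2 with Cpa3 and Cpa3 with Mcpt2 in the wildtype, and Lcp2 with Il1rl1 in the empty vector libraries. The remaining genes stayed under 1 in each library and, apart from Ms4a2 against Hdc with the empty vector and Hdc against Mcpt2 with the mutant, their ranges overlapped.

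**Figure D3:**
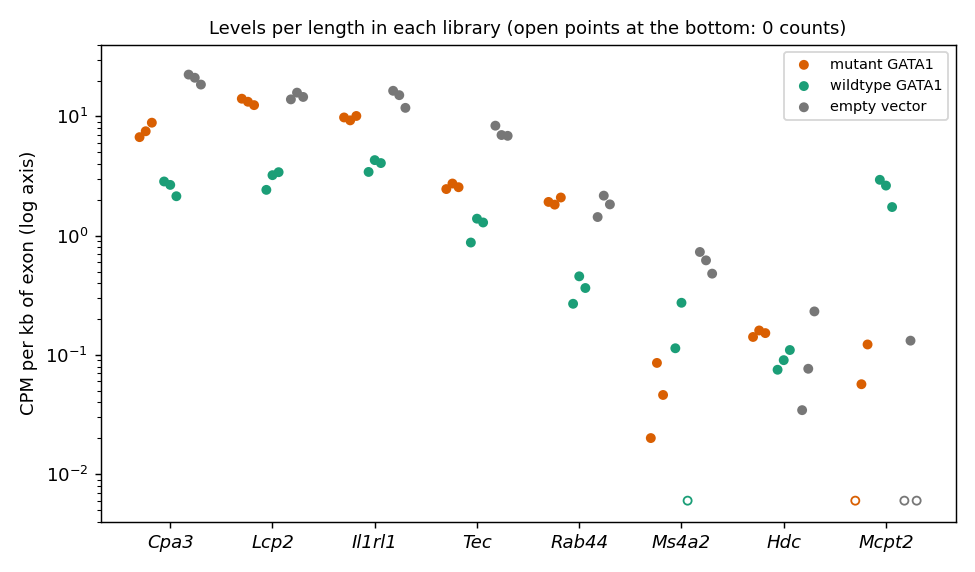
CPM per kilobase of exon (log axis) of the 8 genes in each library, mutant, wildtype and empty vector from left to right, with open points at the bottom for libraries with 0 counts. Cpa3 was the highest gene in the empty vector libraries, and Mcpt2 reached the level of Cpa3 in the wildtype libraries.

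Many of the other signalling genes of the IgE receptor were lower with the wildtype than with the empty vector. With the mutant against the empty vector 0 were called, where 0.271% of all tested genes were called. Of 33 such genes beside Tec and Lcp2, 24 were tested. With the wildtype against the empty vector, 14 fell, 1 rose and 9 were not called, beside 11.9% lower and 11.4% higher over all genes. The median log2 fold change was -0.67, against -0.04 for all tested genes. With the mutant against the empty vector edgeR called 0 of the 24, beside 0.0601% lower and 0.21% higher over all genes, and the median was 0.03. An unadjusted p under 0.05 was reached by 4 of the 24, beside 1284 of all 9978. DESeq2 called 1 higher and 0 lower, 1 was called lower and 1 higher with no filter on low counts, and 1 was called lower without empty vector replicate 3. With the mutant against the wildtype, 14 were higher and 1 was lower, beside 13.2% higher and 12.7% lower over all genes, and the median was 0.66. Under the alternatives, 11 to 14 were called lower with the wildtype and 12 to 15 were higher for mutant against wildtype. The list was drawn up with earlier results known, and no set test was run.

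Among them, Lat, the membrane adaptor that binds SLP-76 through Gads, fell by 2.05 ± 0.27 on the log2 scale with the wildtype (edgeR adjusted p = 0.000125). Lat averaged 3.01 ± 0.516 CPM in mutant libraries and 1.36 ± 0.482 CPM with the wildtype, against 5.61 ± 0.198 CPM with the empty vector (SD, n = 3 each). Grb2, an adaptor that links receptors to Ras, fell by 1.03 ± 0.12 with the wildtype. Vav1, an exchange factor for Rac, and Prkcd, protein kinase C delta, were higher with the mutant than with the wildtype, by 1.06 ± 0.13 and 0.97 ± 0.14 on the log2 scale. The 1 gene that rose with the wildtype was Grap2, which encodes Gads, the partner of SLP-76. Grap2 averaged 4.11 ± 0.750 CPM in mutant libraries and 13.4 ± 1.92 CPM with the wildtype, against 2.10 ± 0.553 CPM with the empty vector. Its log2 fold change was 2.67 ± 0.24 with the wildtype, and mutant against wildtype was -1.70 ± 0.22. Lcp2 and Grap2, whose proteins bind each other, thus differed in sign with the wildtype. Syk and Plcg2 were listed at 0 in all libraries.

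**Figure D4:**
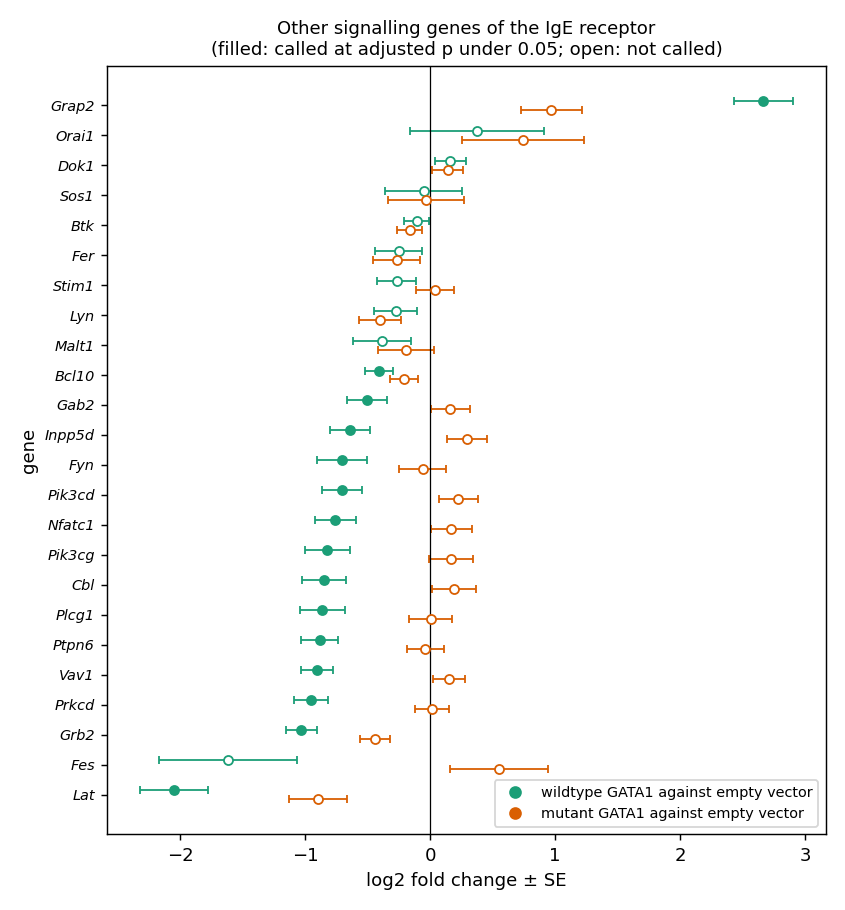
Log2 fold changes with SE of the 24 tested signalling genes of the IgE receptor beside Tec and Lcp2, against the empty vector, filled where called. For the wildtype, 14 genes are filled to the left of 0 and Grap2 to the right at 2.67; for the mutant no gene is filled.

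The other kinases of the TEC family did not share one pattern. Btk averaged 141.9 CPM in mutant libraries and 147.7 CPM with the wildtype, against 159.0 CPM with the empty vector, and was not called in any comparison. Txk, whose gene lies 2938 bases from Tec, had 2, 2 and 3 counts with the mutant and 3, 2 and 1 counts with the wildtype, against 12, 10 and 13 counts with the empty vector. The empty vector libraries were above all others, and Txk was called with the wildtype (log2 fold change -2.15 ± 0.50, edgeR adjusted p = 0.00804), not with the mutant (-2.44 ± 0.48, adjusted p = 0.0666). Bmx had 1 count in the 9 libraries. Slain2, on the other side of Tec, gave a log2 fold change of -0.88 ± 0.24 with the wildtype, which was not called without wildtype replicate 1 or without empty vector replicate 1 or 2.

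The neighbours of the other members were looked at after their values were seen, so they are a description, and not all are named. Gabpb1, next to Hdc, was not called in any comparison or alternative. Next to Ms4a2, Ms4a6d had 8, 15 and 10 counts with the mutant and 0, 0 and 0 counts with the wildtype, against 9, 13 and 7 counts with the empty vector. That made Ms4a6d at least 7.59-fold higher with the mutant than with the wildtype, against 3 counts over the group. Ms4a6b, of the same family, gave -2.47 ± 0.51 on the log2 scale with the wildtype and -0.24 ± 0.36 with the mutant. With the mutant, the Ms4a2 libraries lay below the range of the empty vector libraries, whereas those of Ms4a6d and Ms4a6b overlapped it. Next to Rab44, Cpne5 (a copine, a calcium-dependent membrane-binding protein) gave -1.26 ± 0.27 with the wildtype, 0.32 ± 0.23 with the mutant and 1.58 ± 0.26 for mutant against wildtype, whereas Cdkn1a on the other side was not called. In the cluster of Mcpt2, Mcpt1 had 1, 2 and 1 counts with the mutant and 8, 14 and 12 counts with the wildtype, against 0, 2 and 3 counts with the empty vector. Mcpt1 and Mcpt2 were thus both highest in the wildtype libraries, with a Mcpt1 ratio to empty vector of 8.63 (counting interval 3.36 to 28.3). Mcpt9 had 2 counts in all and Mcpt4 had 0. Il18r1, 136 bases from Il1rl1, had at most 4 counts in a library.

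**Figure D5:**
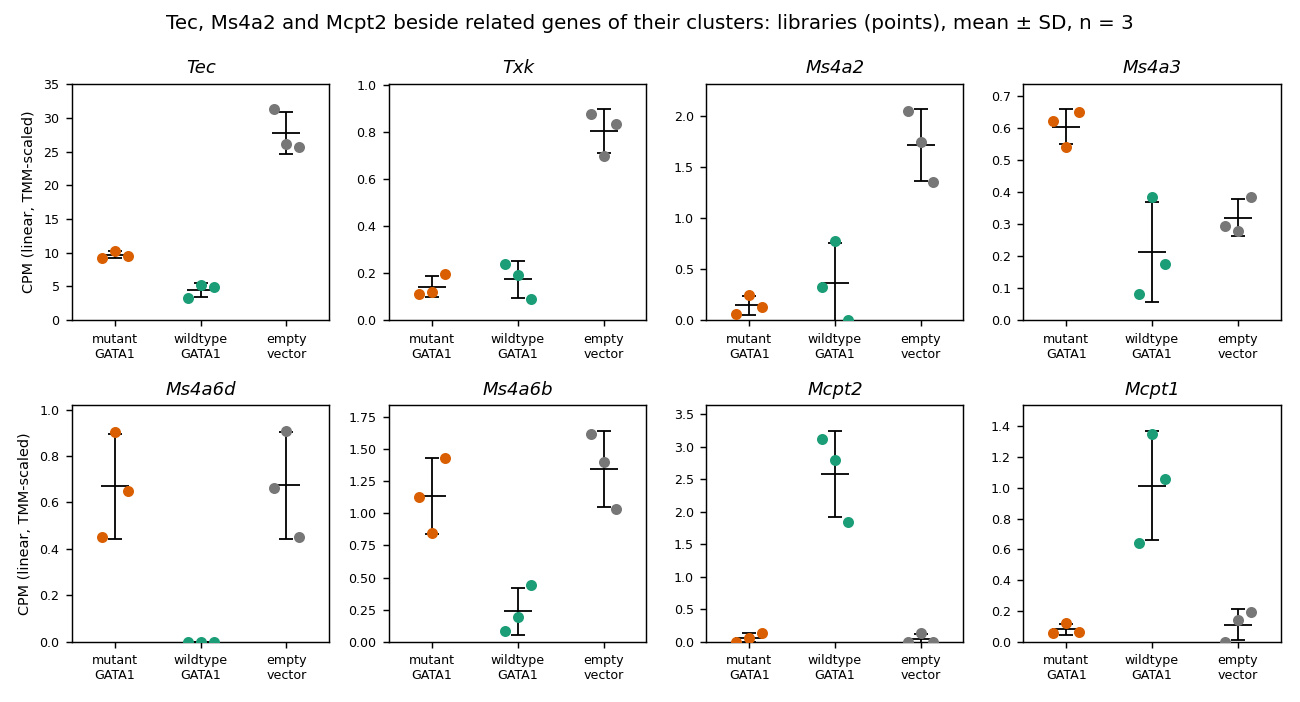
CPM (TMM-scaled, linear axes) of Tec, Ms4a2 and Mcpt2 and of related genes of their clusters in each library, with bars for the mean ± SD of 3 libraries. Ms4a6d and Ms4a6b were lowest in the wildtype libraries and Ms4a2 was low in both mutant and wildtype libraries, while Mcpt1 and Mcpt2 were highest in the wildtype libraries.

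Few other genes of mast cell granules and receptors were measured well. Of 16 granule genes beside Cpa3, Hdc and Mcpt2, 5 were tested and 6, among them Mcpt4, Mcpt8 and Tpsb2, were listed at 0 throughout. Gzmb, granzyme B, and Srgn, the serglycin core protein that packs proteases, fell with the wildtype by 1.90 ± 0.29 and 1.47 ± 0.26 on the log2 scale. Of 8 tested surface receptors, 3 fell and 2 rose with the wildtype, beside 11.9% lower and 11.4% higher over all genes. Kit, the stem cell factor receptor on which mast cells depend, averaged 602 ± 43.4 CPM in mutant libraries and 248 ± 11.7 CPM with the wildtype, against 661 ± 66.2 CPM with the empty vector. Its log2 fold change was -1.41 ± 0.12 with the wildtype and 1.28 ± 0.12 for mutant against wildtype. Fcgr3, an activating IgG receptor, fell by 2.64 ± 0.29 with the wildtype. Csf2rb2 and Csf2rb, the nearly identical beta chains of the interleukin-3 receptors, rose by 2.26 ± 0.25 and 0.73 ± 0.15, and reads may be split between them.

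In the degranulation list beside Rab44, 17 genes were tested, of which 3 fell and 1 rose with the wildtype, beside 11.9% lower and 11.4% higher over all genes. The 1 that rose was Rabgef1, an exchange factor for Rab5, at 0.38 ± 0.12, a call lost in 9 of 16 alternatives. Rab27b and Rab27a, which dock granules at the membrane, fell by 1.77 ± 0.25 and 1.0 ± 0.16 on the log2 scale. Rab3d fell by 0.49 ± 0.14, a call lost with a replicate block, in a fit of the 6 libraries alone, or without wildtype replicate 1, empty vector replicate 2 or empty vector replicate 3. Of the 10 tested genes of interleukin-33 signalling beside Il1rl1, 1 fell, 1 rose and 8 were not called with the wildtype. The shares over all genes were 11.9% lower and 11.4% higher. Il33 itself fell, by 2.76 ± 0.57, and the kinase gene Irak2 rose, by 2.02 ± 0.18. Il33 did not pass the filter of 5 CPM in 3 libraries. Of 5 tested genes of eicosanoid synthesis, 2 were higher with the mutant than with the wildtype, beside 13.2% higher over all genes. Alox5ap, the partner of 5-lipoxygenase, was higher by 2.01 ± 0.36, and Lta4h, which makes leukotriene B4, by 0.41 ± 0.11, a call lost in 4 of 17 alternatives. Alox5ap also fell by 1.28 ± 0.38 with the wildtype against the empty vector, a call lost in 4 of 15 alternatives. Of 18 mast cell cytokines, 10 were listed at 0 and 4 were tested; Il4 and Osm rose with the wildtype by 0.72 ± 0.17 and 0.61 ± 0.12, and the Il4 call was lost without empty vector replicate 2.

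Of 13 tested transcription factors of mast cells and basophils, 4 fell and 2 rose with the wildtype, beside 11.9% lower and 11.4% higher over all genes. Gata2 averaged 286 ± 5.57 CPM in mutant libraries and 103 ± 14.3 CPM with the wildtype, against 328 ± 52.3 CPM with the empty vector, a log2 fold change of -1.67 ± 0.14 with the wildtype. Stat5a, which carries the signals of Kit and interleukin-3, fell by 1.41 ± 0.13 with the wildtype, and Ldb1, a cofactor of GATA complexes, rose by 0.95 ± 0.14. The other that rose was Tal1, at 0.34 ± 0.11, a call lost in 10 of 16 alternatives. Mitf and Cebpa were listed at 0. With the mutant against the empty vector, edgeR called 0 genes in these 7 lists of granule, receptor, degranulation, interleukin-33, eicosanoid, cytokine and transcription factor genes, while 2 of 5, 3 of 8, 6 of 17, 2 of 10, 3 of 5, 2 of 4 and 3 of 13 tested genes had an unadjusted p under 0.05, beside 1284 of all 9978. Over all tested genes, edgeR called 0.0601% lower and 0.21% higher in that comparison. DESeq2 called 2 granule genes and 1 degranulation gene lower there. With no filter on low counts, 2 granule, 3 receptor, 2 degranulation and 1 eicosanoid gene were called lower, and without mutant replicate 1 it was 1 granule gene. Without empty vector replicate 3, 2 granule, 1 receptor, 5 degranulation, 1 eicosanoid and 1 transcription factor gene were called lower, and 1 transcription factor gene higher.

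Over the 9 libraries, 2 of the other members had a pattern close to that of Cpa3. Pearson's r of log2 CPM with Cpa3 was 0.969 for Tec and 0.961 for Il1rl1, and 0.881 for Lcp2, 0.829 for Rab44, 0.682 for Ms4a2, -0.05 for Hdc and -0.85 for Mcpt2. Among 8088 other genes at 5 CPM or more, Armc8, Adi1, Wls, Plscr1 and Acat2 were most like Cpa3, at r of 0.993 to 0.976. Their changes were much smaller: Armc8 averaged 56.4 ± 0.834 CPM in mutant libraries and 53.1 ± 0.29 CPM with the wildtype, against 60.0 ± 0.748 CPM with the empty vector. The correlations describe 9 libraries in 3 groups, which share the group differences, and carry no p.

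Summed markers of some other cell types differed between the groups, and those of others overlapped. The summed level of 10 erythroid markers was 1910 to 2104 CPM in mutant libraries and 18723 to 29815 CPM with the wildtype, against 733 to 831 CPM with the empty vector. The 13 granulocyte and monocyte markers summed to 10.2 to 12.2 CPM in mutant libraries and 2.37 to 2.72 CPM with the wildtype, against 10.2 to 12.1 CPM with the empty vector, with Elane, S100a8, S100a9 and Itgam at 0 throughout. The 11 megakaryocyte markers summed to 69.0 to 81.4 CPM in mutant libraries and 44.0 to 54.3 CPM with the wildtype, against 90.7 to 109 CPM with the empty vector, with Vwf and Gp1bb at 0. The 6 basophil markers overlapped between groups in their sum, at 8.77 to 12.0 CPM in mutant libraries and 7.36 to 10.8 CPM with the wildtype, against 10.3 to 13 CPM with the empty vector, with Mcpt8 and Cd69 at 0 and Il3ra the main one. Cd200r3, a smaller part of that sum, had 2.71, 2.80 and 2.12 CPM with the empty vector and at most 1.43 CPM with GATA1. It was called lower with the wildtype (-1.30 ± 0.36 on the log2 scale), in 13 of 15 alternatives too, and not called with the mutant (-1.38). Il3ra, the other tested basophil marker, was not called with either. The 6 eosinophil markers summed to 3.84 to 6.04 CPM in mutant libraries and 3.51 to 5.36 CPM with the wildtype, against 3.08 to 3.54 CPM with the empty vector. Of these, Prg2, the major basic protein, had 4, 2 and 2 counts with the mutant and 46, 26 and 20 counts with the wildtype, against 0 with the empty vector, at least 38.9-fold higher with the wildtype on a floor of 3 counts over the group. Its relative Prg3 had 49, 44 and 54 counts with the mutant and 14, 6 and 7 counts with the wildtype, against 2, 5 and 10 counts with the empty vector. Il5ra, also of this list, went the other way. It was called lower with the wildtype, at -2.07 ± 0.52 on the log2 scale, a call lost without wildtype replicate 1. With the mutant Il5ra gave -0.58 and was not called. Of 10 lymphoid markers, 8 were at 0. The part of these shifts in the levels of the 8 genes was not tested.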

How the data were processed

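Per the labels' protocols, RNA from G1E cells was made into libraries by Smart-seq2, a full-length poly(A)-primed method that keeps no strand, with Nextera-based indexing. The authors deposited raw counts of reads per gene. Reads were mapped with STAR to GRCm38.p4 and hg19, per the submitters' processing notes; the counter, the annotation and the handling of multi-mapped reads were not given in the sources used here. Groups and replicate numbers came from the sample titles, and nothing in them says how cultures were separated, so p-values reflect only the spread among the libraries.

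Here, counts were filtered with filterByExpr, scaled by TMM and fitted with the quasi-likelihood model of edgeR 4.0.16 (limma 3.58.1, R 4.3.3) over all 9 libraries, with Benjamini-Hochberg adjustment per comparison over 9978 genes. SE was the size of the log2 fold change divided by the root of F, and intervals are 95%. CPM was scaled by TMM library sizes, and by library totals for human GATA1 and the floors; log2 CPM used a prior count of 2. Exon lengths and coordinates are from GENCODE M21 on GRCm38.

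The members and gene lists were chosen with earlier results of these data known. Named are all 8 members, paralogs, the 5 genes most like Cpa3 and some of the 3 called genes with the smallest p per list and comparison; the rule covered all of the last, but some were left out for length and the lists of other cell types are given as sums. Neighbours, and genes named for a 0, for a small count of calls or as a marker, were chosen after their values were seen. A gene of the lists is not reported here. Same-numbered mutant and wildtype libraries deviated from their group means together (correlations 0.17, 0.29 and 0.53). With the empty vector libraries of the same number the correlations were negative, from -0.20 to -0.44. Libraries of unlike number were not compared, so these values cannot show that the numbers pair libraries. The labels do not say so either. Alternatives were RLE scaling, DESeq2 1.42.0, no filter, a filter of 5 CPM in 3 libraries, fits of 6 libraries, replicate blocks, leaving out each library, and summing mutant replicates 1 and 2.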

Additional observations from a re-analysis of the deposited data

How the results depend on the processing

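No called result reversed. Counts of the 8 genes moved by over 1.5 times only under the filter of 5 CPM in 3 libraries, which removed Mcpt2 (with Ms4a2 and Hdc) and left 0 called higher for wildtype against empty vector and 0 called lower for mutant against wildtype. Leaving out 1 library gave 5 to 6 of them lower and 1 to 1 higher (wildtype against empty vector), 2 to 4 lower and 0 to 0 higher (mutant against empty vector), and 1 to 1 lower and 5 to 5 higher (mutant against wildtype).

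The background counts moved more. For mutant against empty vector, 6 genes were called lower and 21 higher; DESeq2 gave 39 and 63, no filter 296 and 119, and mutant replicates 1 and 2 summed 2 and 9. Leaving out 1 library gave 2 to 607 lower and 5 to 229 higher, the upper values without empty vector replicate 3. For wildtype against empty vector the ranges were 700 to 1635 lower and 717 to 1609 higher, with 700 and 717 without empty vector replicate 2 and 704 lower without wildtype replicate 1. For mutant against wildtype they were 746 to 1572 lower and 723 to 1574 higher, with the lowest values without mutant replicate 1, 764 lower and 787 higher without mutant replicate 2, 800 and 874 higher without wildtype replicates 1 and 2, and 765 lower and 780 higher with mutant replicates 1 and 2 summed. The cause was not tested.

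With a replicate block in all 9 libraries, 2 genes were lower and 12 higher for mutant against empty vector, and Ms4a2 lost its call there; the block changed no other call of the 8 genes. With the block in the 6 mutant and wildtype libraries alone, an alternative added after seeing the data, 2413 genes were lower and 2361 higher, while the calls of the 8 genes were those given in the report. Depth limits Hdc, Ms4a2 and Mcpt2, each with fewer than 40 counts in every library. For Hdc the spread among the empty vector libraries is a limit as well.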
